A study of Mus musculus with 8 samples.

Results

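Megakaryocyte and platelet function genes were examined in common myeloid progenitors (CMPs), bone marrow progenitors that give rise to the myeloid, erythroid and megakaryocytic lineages. The set named 44 genes whose products serve platelet adhesion, granules, purinergic and thromboxane signalling, the cytoskeleton and intracellular signalling, and it was read from every non-control probe that carries one of these names. Probes of this name were found for 43 of the 44 genes, and 41 of them were measured well enough for a test, out of 23151 tested gene names of 34797 on the array. The 43 genes had 60 probes, of which 55 were tested. Of the 44 genes, Bin2 had no probe under that name, the probe of Cd226 gave no signal well above background, and that of P2ry12 passed on 1 old array only.

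RNA of CMPs sorted from C57BL/6J mice was hybridized with 1 dye to 8 Agilent mouse arrays, 4 of young mice (2 to 3 months by the sample labels, replicates 3, 4, 5 and 6) and 4 of old mice (22 to 24 months, replicates 2, 3, 4 and 5). The mice were wild-type and untreated, and the gate was lineage-negative, c-Kit-positive, Sca-1-negative, CD34-positive and low for Fcγ receptors. The lineage antibodies named in the methods do not include one against a platelet or megakaryocyte antigen. The methods give mice of both sexes and fewer mice per age than there are arrays, and the mouse behind each array is not identified, so the p-values measure the spread between these samples.

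Megakaryocytes arise from progenitors of this compartment and also, by a shorter route, from platelet-primed stem cells, and they shed platelets into the blood. A platelet catches on exposed collagen and von Willebrand factor through the glycoprotein Ib-IX-V complex and glycoprotein VI, is activated through receptors for ADP, ATP and thromboxane A2, binds fibrinogen through the integrin alpha IIb beta 3 and releases stored proteins from its alpha-granules. The genes of these proteins are typically transcribed long before platelets are made, under GATA and ETS family transcription factors, and some are already used in early progenitors and stem cells.

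All levels below are log2 intensities relative to the 75th percentile of the same array, so that 0 is the level of that percentile. Each gene stands by its brightest probe on average, differences are old minus young, and levels of different probes cannot be set against each other. The 75th percentile intensity lay between 352.3 and 565.4 on the young and between 289.7 and 517.6 on the old arrays, no spot was saturated, and the share of probes with signal well above background ran from 55.65% to 63.17%. Kit and Cd34, the positive markers of the gate, were well above background on all 8 arrays. The arrays lay on 2 slides that each held 2 arrays of either age, with young replicates 3 and 4 and old replicates 2 and 4 on slide 1.

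The members were higher in old CMPs almost throughout. Of the 41 tested members, 39 had a higher mean in old mice, against 47.6% of all tested genes, and the median difference over the members was 0.91 (1.88-fold), against -0.0148 over all tested genes. In 24 members the lowest old array exceeded the highest young array, a pattern seen in 3.19% of all tested genes, and in none did the ages separate the other way (1.66% of all genes). A difference of at least 1.5-fold upwards was found for 27 members (3.62% of all genes) and of at least 2-fold for 15 members (1.05% of all genes).

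Single genes passed the test rarely. Gp9, Timp3 and Alox12 rose at an adjusted p under 0.05 in limma and at least 1.5-fold, against 0.19% of all tested genes called in this direction, and no member fell, against 0.0173% of all genes. At an unadjusted limma p under 0.05, 31 members were higher and none was lower, where 3.95% and 2.67% of all tested genes were. The calls of the 3 members did not hold once the slide entered the fit, since the adjusted limma p was then 0.0631 for Gp9, 0.0582 for Timp3 and 0.0631 for Alox12, while their differences were the same.

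**Figure D1:**
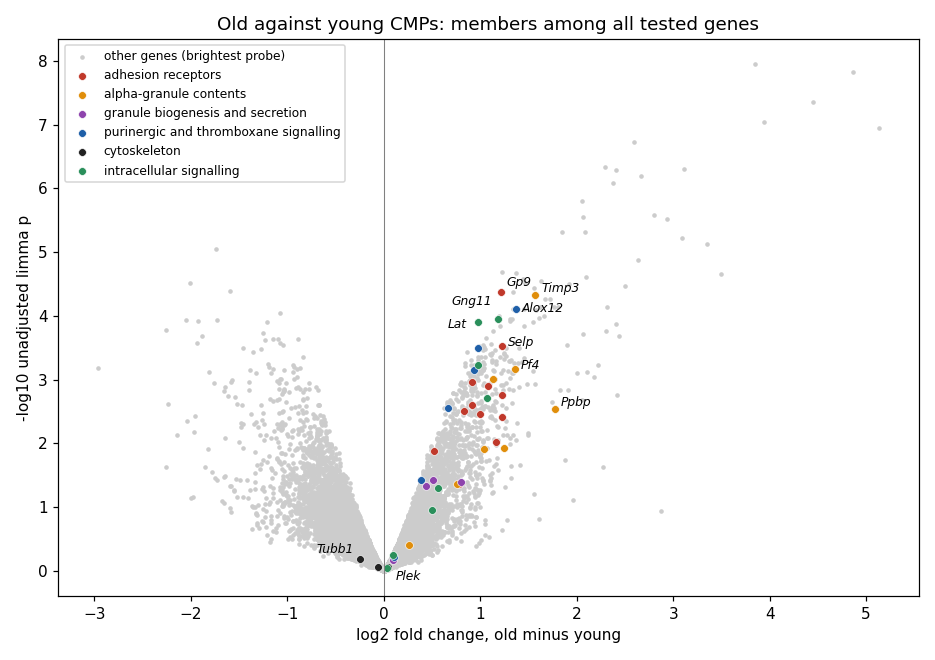
Difference between old and young CMPs (x axis, log2) against -log10 of the unadjusted limma p (y axis) for each tested gene at its brightest probe, with members coloured by subgroup and other genes in grey. The members lie to the right of 0 with 2 exceptions, Tubb1 at -0.25 and Myl9 at -0.06, and Gp9, Timp3 and Alox12 lie highest among them.

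The subgroups differed in size of shift. The median difference was 1.19 for the 8 alpha-granule genes, 1.04 for the 12 tested adhesion receptors, 0.80 for the 6 tested purinergic and thromboxane genes and 0.77 for the 8 genes of intracellular signalling. It was 0.48 for the 4 genes of granule biogenesis and secretion and -0.06 for the 3 tested cytoskeleton genes. Of these cytoskeleton genes, only 1 was well above background on all 8 arrays. Complete separation of the ages was found in 10 of 12 adhesion receptors, 5 of 8 alpha-granule genes, 5 of 6 purinergic and thromboxane genes and 4 of 8 signalling genes, and in none of the genes of granule biogenesis or of the cytoskeleton. The difference between subgroups was not tested, since their genes are not replicates.

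**Figure D2:**
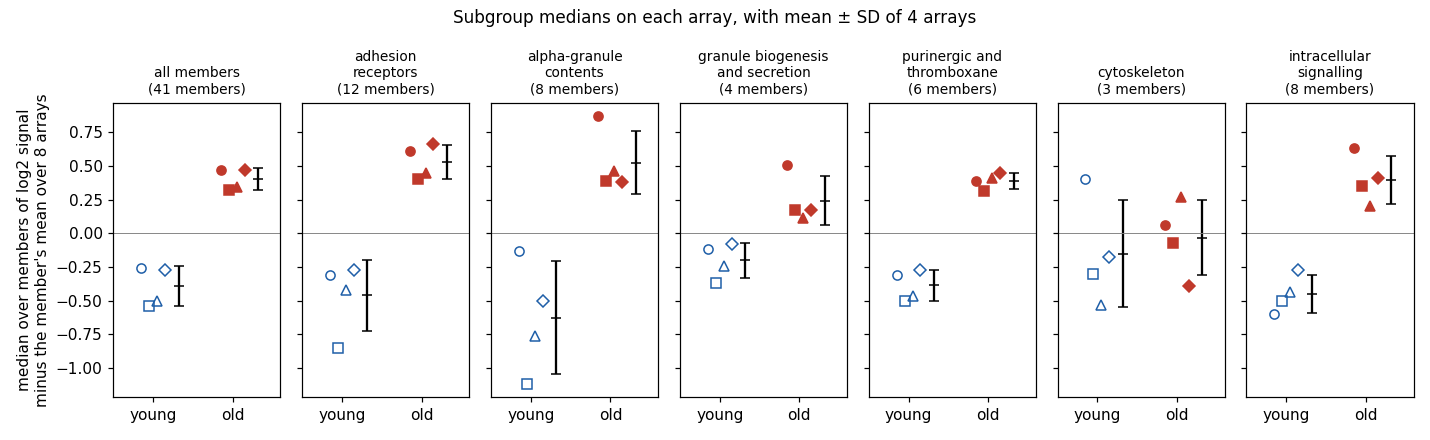
Median over the tested members of a subgroup of the log2 signal minus each member's mean over the 8 arrays (y axis), for each young (open) and old (filled) array, with the mean ± SD of 4 arrays in black. The young and old arrays are apart in every panel except the cytoskeleton, where the young arrays span -0.53 to 0.40 and the old arrays -0.39 to 0.27.

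The adhesion receptors include the 4 genes of the glycoprotein Ib-IX-V complex, the platelet receptor for von Willebrand factor, which differed by 0.83 to 1.23. The bases just before the RefSeq start of 3 of its genes, of Itga2b and of Pf4 are shown because these are well known lineage genes that were higher in old CMPs, and those of Tubb1 because its difference was the lowest of all members. They run 5′ to 3′ on the gene's strand, from 130 bases upstream to the last base before the start, in the RefSeq promoters of GRCm38.p6. Capitals mark every match, on either strand, to the GATA core AGATAA, the ETS cores AGGAAG and CCGGAA and the NF-E2 or AP-1 core TGAGTCA. Other forms of these cores, such as TGATAA in the Gp1ba window, were not marked. These windows are no sample of the members. Each of them holds AGGAAG, which only 57.1% of the 35 members with a promoter hold even in a wider window. Gp1bb, the gene of the complex that is not shown, has its only AGGAAG match at base 21 after the start, outside such a window.
Gp9, chr6:87777940-87778069, plus strand: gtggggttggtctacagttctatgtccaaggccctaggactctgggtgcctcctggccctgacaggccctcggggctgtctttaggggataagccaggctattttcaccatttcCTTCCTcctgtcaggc
Gp1ba, chr11:70638992-70639121, plus strand: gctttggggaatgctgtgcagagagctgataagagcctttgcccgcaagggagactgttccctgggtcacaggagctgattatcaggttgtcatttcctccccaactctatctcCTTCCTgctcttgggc
Gp5, chr16:30310782-30310911, minus strand: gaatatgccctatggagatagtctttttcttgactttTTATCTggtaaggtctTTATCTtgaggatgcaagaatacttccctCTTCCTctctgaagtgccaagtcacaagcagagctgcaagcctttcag
Itga2b, chr11:102469884-102470013, minus strand: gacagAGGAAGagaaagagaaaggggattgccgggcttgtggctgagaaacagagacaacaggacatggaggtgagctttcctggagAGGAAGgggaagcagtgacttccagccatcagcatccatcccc
Pf4, chr5:90772305-90772434, plus strand: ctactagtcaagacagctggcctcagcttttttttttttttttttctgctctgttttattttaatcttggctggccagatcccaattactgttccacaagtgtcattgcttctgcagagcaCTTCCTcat
Tubb1, chr2:174450465-174450594, plus strand: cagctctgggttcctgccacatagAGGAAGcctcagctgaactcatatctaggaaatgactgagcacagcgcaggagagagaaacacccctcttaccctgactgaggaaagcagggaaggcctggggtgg

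Gp9 encodes glycoprotein IX, which holds the complex together at the surface. Its levels were 1.44, 1.38, 1.58 and 1.71 on young replicates 3 to 6 and 2.98, 2.75, 2.61 and 2.61 on old replicates 2 to 5. The old arrays thus all lay above the young arrays, and the replicates of either age were close together. Gp9 rose by 1.21 (SE 0.17, 2.31-fold, adjusted p = 0.0327 in limma), and its probe lies at chr6:87729650-87729709 in mm9.

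Gp1ba encodes the chain that binds von Willebrand factor and measured 0.21, 0.39, 0.47 and 1.23 on the young and 1.82, 1.57, 1.44 and 1.77 on the old arrays. Young replicate 6 came nearest to the old arrays without reaching them. The difference of 1.08 (SE 0.24, 2.11-fold) had an adjusted p of 0.163 in limma. Gp5, the gene of glycoprotein V, measured 0.12, 0.45, 1.14 and 1.06 on the young and 2.10, 1.88, 1.39 and 2.33 on the old arrays. Its ages did not overlap either, with a difference of 1.23 (SE 0.29) and an adjusted p of 0.182 in limma. Gp1bb, the gene of the disulfide-linked partner of the Gp1ba chain, was higher by 0.83 (SE 0.20, adjusted p = 0.243 in limma) over 4 young and 3 old arrays, since the scanner software marked its spot on old replicate 5 as an outlier.

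The integrin alpha IIb beta 3 binds fibrinogen and joins platelets to each other. Itga2b, its alpha chain, is also the early marker CD41 of megakaryocyte-biased progenitors, and it measured 2.79, 2.14, 3.12 and 3.23 on the young and 3.63, 3.83, 3.86 and 4.85 on the old arrays. Old replicate 5 was highest by about 1 log2 unit, and the lowest old array still exceeded the highest young array. The difference was 1.22 (SE 0.32, 2.33-fold, adjusted p = 0.272 in limma). Itgb3, its beta chain, measured 4.52, 3.95, 4.35 and 4.49 on the young and 5.12, 5.03, 5.25 and 5.53 on the old arrays. It was higher by 0.91 (SE 0.20, adjusted p = 0.157 in limma) without overlap, and its other probe was higher by 1.11 with young replicate 3 inside the old range.

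Among the other surface proteins, Selp encodes P-selectin, which sits in the alpha-granule membrane until release. It measured -0.27, -0.80, -0.10 and -0.11 on the young and 0.92, 0.83, 0.59 and 1.23 on the old arrays. All young values were below and all old values above the 75th percentile of the array, and the difference was 1.22 (SE 0.22, adjusted p = 0.0955 in limma). Treml1, the gene of the alpha-granule membrane receptor TLT-1, was higher by 1.0 (SE 0.26, adjusted p = 0.255 in limma), from a range of 3.06 to 4.24 in young to one of 4.52 to 4.98 in old mice. Cd9, the gene of a tetraspanin, went from a range of 3.66 to 4.51 to one of 4.77 to 5.25 and was higher by 0.91 (SE 0.23, adjusted p = 0.22 in limma). Pear1, the gene of a platelet contact receptor, went from 0.84 to 1.31 in young mice to 1.59 to 1.78 in old mice and was higher by 0.52 (SE 0.17, adjusted p = 0.477 in limma). The ages did not overlap in any of these 3 genes.

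Overlap within the subgroup was found at the activating receptors Clec1b and Gp6, and in both it came from young replicate 3. Clec1b encodes CLEC-2, the podoplanin receptor, and measured -0.28, -2.05, -1.94 and -1.53 on the young and -0.25, -0.50, 0.00 and -0.41 on the old arrays. The other 3 young arrays lay more than 1 log2 unit below the lowest old array, and without young replicate 3 the gene was called higher by 1.55. With all arrays its difference was 1.16 (SE 0.36, adjusted p = 0.412 in limma). Gp6, the collagen receptor, was dim and measured -3.84, -5.39, -4.99 and -4.40 on the young and -4.15, -4.24, -3.49 and -3.61 on the old arrays. It was well above background on 2 young and 4 old arrays and was higher by 0.78 (SE 0.34, adjusted p = 0.761 in limma).

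The alpha-granule genes encode the proteins that a platelet stores and secretes. Ppbp, the gene of the platelet chemokine precursor that yields CXCL7, had the largest difference of all members, 1.77 (SE 0.45, 3.41-fold, adjusted p = 0.235 in limma). It measured -2.26, -2.43, -3.76 and -3.09 on the young and -0.27, -0.54, -1.83 and -1.83 on the old arrays. The ages did not overlap, but both were widely spread, with SDs of 0.69 and 0.83 (n = 4 each).

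Timp3 encodes an inhibitor of metalloproteinases and measured 0.86, 0.15, 0.58 and 0.72 on the young and 2.36, 2.38, 1.71 and 2.13 on the old arrays. The gap between the highest young and the lowest old array was wider than the range of either age. Timp3 rose by 1.57 (SE 0.23, 2.96-fold, adjusted p = 0.0352 in limma), and its probe lies at chr10:85811696-85811755 in mm9.

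Pf4, the gene of platelet factor 4 and the neighbour of Ppbp on chromosome 5, measured 6.93, 5.71, 5.98 and 6.38 on the young and 7.67, 7.31, 7.95 and 7.49 on the old arrays. Young replicate 3 was the young array closest to the old ones. The difference was 1.36 (SE 0.28, 2.56-fold, adjusted p = 0.13 in limma). Vwf, the gene of von Willebrand factor, measured 4.16, 3.25, 4.01 and 4.23 on the young and 4.82, 4.95, 5.18 and 5.22 on the old arrays and was higher by 1.13 (SE 0.24, adjusted p = 0.149 in limma). Mmrn1 encodes multimerin, the carrier of factor V, and was higher by 1.25 (SE 0.40, adjusted p = 0.445 in limma), with young replicate 3 at -0.22 just under old replicate 2 at -0.20.

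The remaining alpha-granule genes overlapped between the ages. Ltbp1, which encodes a binding protein of latent TGF-beta, went from a range of -2.90 to -1.65 in young to one of -1.82 to -0.58 in old mice and was higher by 1.04 (SE 0.34), with young replicate 3 alone inside the old range. Thbs1, the gene of thrombospondin, was higher by 0.76 (SE 0.33) with a range of -3.93 to -2.75 in young and -2.89 to -1.90 in old mice. Angpt1 encodes angiopoietin 1, a ligand that haematopoietic stem cells receive through Tie2. It measured 2.06, 1.35, 0.65 and 0.90 on the young and 1.25, 1.5, 1.69 and 1.56 on the old arrays. The highest of the 8 values was that of young replicate 3, and the difference was 0.26 (SE 0.29, adjusted p = 0.998 in limma).

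**Figure D3:**
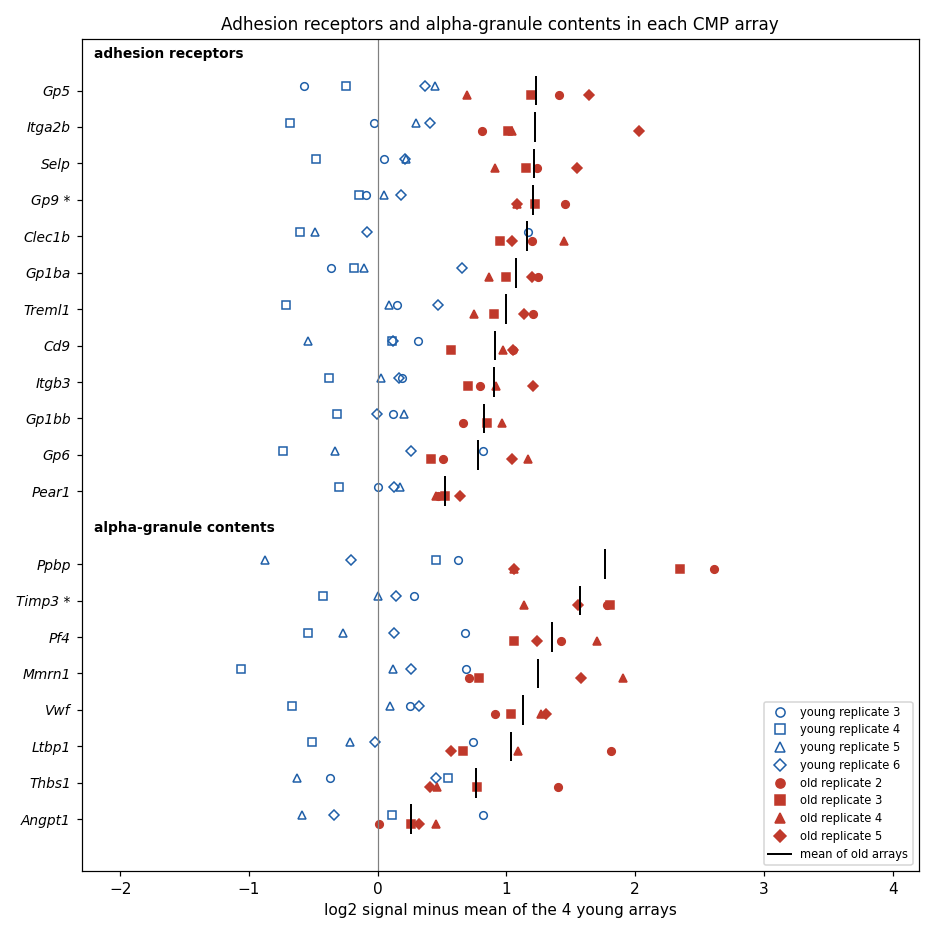
Log2 signal of each tested adhesion receptor and alpha-granule gene on each array, as the difference from the mean of the 4 young arrays (x axis), young arrays open, old arrays filled, with a black bar at the old mean and an asterisk at called genes. The old points lie to the right of the young points in all rows except Clec1b, Gp6, Ltbp1, Thbs1 and Angpt1, and young replicate 3 (open circle) is the rightmost young point in 4 of these 5 rows.

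The genes for making and releasing granules differed by 0.09 to 0.80, and none was called. Rab27b, whose product docks granules, measured 2.02, 1.01, 0.28 and 0.52 on the young and 1.88, 1.69, 1.84 and 1.65 on the old arrays. The old arrays were close together, young replicate 3 was above all of them, and the difference was 0.80 (SE 0.34, adjusted p = 0.736 in limma). Slc35d3, which encodes a transporter needed for dense granules, was higher by 0.51 (SE 0.21), from a range of 1.72 to 2.27 in young to one of 2.21 to 2.90 in old mice. Vamp8, the gene of the main vesicle SNARE of platelet release, was higher by 0.44 (SE 0.19), from 4.30, 4.35, 4.69 and 4.73 to 5.25, 4.91, 4.97 and 4.70, with 1 old array inside the young range. Its difference was 0.78 on slide 1 and 0.10 on slide 2. Nbeal2, without which alpha-granules do not form, measured 1.71, 1.67, 2.37 and 2.08 on the young and 2.04, 2.17, 1.81 and 2.16 on the old arrays. The old values lay within the young range, and the difference was 0.09 (SE 0.21, adjusted p = 0.998 in limma).

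Of the purinergic and thromboxane genes, the enzymes and the receptor of the arachidonic acid branch and the ATP-gated channel P2rx1 were higher in old CMPs without overlap, the ADP receptor P2ry1 overlapped, and P2ry12 was not tested. Ptgs1, the gene of cyclooxygenase 1, which opens this branch, measured 2.24, 2.16, 1.80 and 2.37 on the young and 3.1, 3.00, 3.27 and 3.14 on the old arrays. The old arrays were tightly grouped, and the difference was 0.98 on either slide (SE 0.18, 1.97-fold, adjusted p = 0.0979 in limma). Tbxas1 encodes thromboxane A synthase and was higher by 0.67 (SE 0.17, adjusted p = 0.232 in limma), from a range of 3.89 to 4.31 to one of 4.69 to 4.85. Tbxa2r, the gene of the thromboxane receptor, measured 1.26, 0.55, 1.07 and 1.15 on the young and 1.94, 1.94, 1.89 and 2.01 on the old arrays. Its old SD was 0.05 (n = 4), its young SD 0.31 (n = 4), and its difference 0.94 (SE 0.19, adjusted p = 0.13 in limma).

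Alox12, the gene of platelet 12-lipoxygenase, which draws on the same substrate, was the called member of this subgroup. It measured -2.26, -2.66, -2.42 and -1.95 on the young and -1.18, -1.06, -0.96 and -0.60 on the old arrays. The values of the ages were apart by more than the young range, and Alox12 rose by 1.37 (SE 0.21, 2.59-fold, adjusted p = 0.0457 in limma). The probe lies at chr11:70055715-70055774 in mm9. A second, dimmer probe had signal well above background on 3 old and 0 young arrays. With young arrays at the level of their dimmest passing probe, or their own value if greater, its old mean was 2.06-fold higher. This is an estimate and no strict bound, since the old mean includes the array that did not pass.

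Of the nucleotide receptors, P2rx1, the ATP-gated channel, measured 1.6, 1.29, 1.41 and 1.33 on the young and 1.93, 1.71, 1.75 and 1.79 on the old arrays. The ages were apart by a small margin, with a difference of 0.39 (SE 0.16, 1.31-fold, adjusted p = 0.714 in limma). P2ry1, the ADP receptor that triggers shape change, measured 2.42, 1.97, 1.45 and 1.81 on the young and 1.95, 2.08, 2.02 and 2.05 on the old arrays. The old values lay inside the young range, and the difference was 0.11 (SE 0.22, adjusted p = 0.998 in limma). P2ry12, the ADP receptor that sustains aggregation, was well above background on old replicate 2 alone, at -4.51, where the other 7 arrays measured between -7.31 and -6.30.

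The cytoskeleton genes, which serve proplatelet formation and contraction, showed no shift in common. Of the 3 tested, only Mylk was well above background on all 8 arrays at its brightest probe, so the subgroup median rests on dim genes. Tubb1, the gene of the megakaryocyte beta tubulin that forms the platelet's marginal band, measured -5.00, -5.01, -5.08 and -2.27 on the young and -4.41, -4.88, -4.52 and -4.57 on the old arrays. Young replicate 6 stood far above the other 7 arrays, and all old arrays lay above the other 3 young arrays. The difference was -0.25 (SE 0.57, adjusted p = 0.998 in limma) and turned to 0.44 without that array. Tubb1 was dim, being well above background on 3 arrays of each age, as was Myl9. Myl9, the gene of a myosin light chain, measured -3.48, -3.67, -4.51 and -4.16 on the young and -3.54, -3.76, -3.71 and -5.03 on the old arrays, a difference of -0.06 (SE 0.36) in which old replicate 5 was lowest. Mylk, the gene of myosin light chain kinase, measured -1.85, -2.55, -2.13 and -2.55 on the young and -2.34, -2.32, -1.61 and -2.64 on the old arrays, a difference of 0.04 (SE 0.26). Its second probe had the ages apart, from a range of -3.58 to -2.94 in young to one of -2.71 to -2.47 in old mice, a difference of 0.68 (SE 0.19, adjusted p = 0.312 in limma).

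Among the intracellular signalling genes, Lat and Gng11 came closest to a call. Lat encodes the adaptor below glycoprotein VI and CLEC-2 and measured 3.26, 3.35, 3.37 and 3.48 on the young and 4.47, 4.37, 4.37 and 4.17 on the old arrays. The spread within either age was small beside the difference of 0.98 (SE 0.16, 1.97-fold), which had an adjusted p of 0.0537 in limma. Gng11, the gene of a G protein gamma subunit, measured 2.33, 2.03, 2.37 and 2.63 on the young and 3.75, 3.31, 3.50 and 3.52 on the old arrays. It was higher by 1.18 (SE 0.19, 2.26-fold) at the same adjusted p of 0.0537.

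Trpc6 encodes a diacylglycerol-gated cation channel and measured -0.20, -1.13, -1.20 and -0.62 on the young and 0.47, 0.06, 0.09 and 0.50 on the old arrays. The ages were apart, with a difference of 1.07 (SE 0.25, adjusted p = 0.197 in limma). Prkcq, the gene of protein kinase C theta, measured 0.46, 0.70, 0.82 and 0.93 on the young and 1.97, 1.77, 1.35 and 1.72 on the old arrays, a difference of 0.98 (SE 0.20, adjusted p = 0.124 in limma). These 2 genes and Lat and Gng11 were the signalling members without overlap.

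The other 4 signalling members overlapped. Dok2, an adaptor, was higher by 0.56 (SE 0.25), from a range of 3.40 to 4.30 in young to one of 4.13 to 4.86 in old mice. Fermt3, the gene of the integrin activator kindlin 3, was higher by 0.50 (SE 0.28), from a range of 2.76 to 3.87 to one of 3.30 to 4.15. Rasgrp2, the gene of the calcium-dependent activator of Rap1, measured 3.77, 3.83, 3.88 and 3.95 on the young and 3.90, 3.87, 4.18 and 3.87 on the old arrays, a difference of 0.10 (SE 0.16). Plek, the gene of pleckstrin, measured 5.36, 4.97, 4.2 and 4.54 on the young and 4.58, 4.80, 4.74 and 5.07 on the old arrays, a difference of 0.03 (SE 0.26). For Plek the slides went opposite ways, with -0.51 on slide 1 and 0.57 on slide 2.

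**Figure D4:**
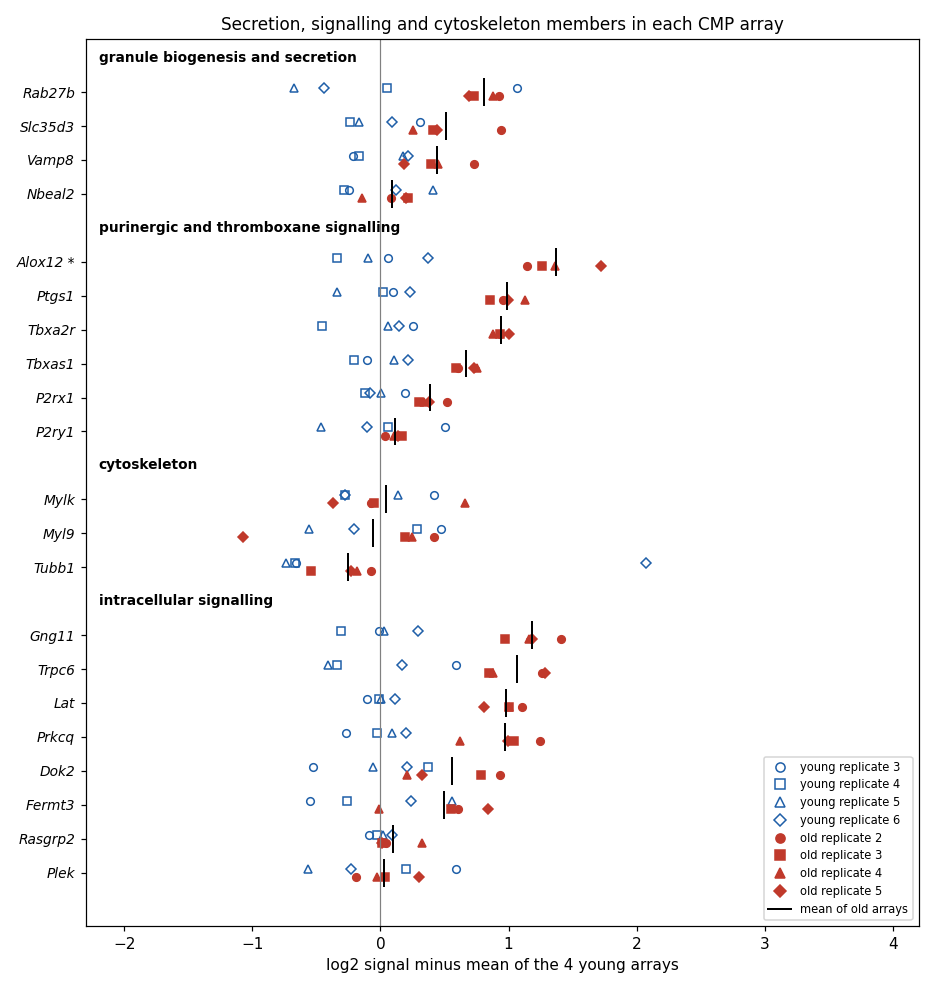
Log2 signal of each tested gene of granule biogenesis, purinergic and thromboxane signalling, the cytoskeleton and intracellular signalling on each array, as the difference from the mean of the 4 young arrays (x axis), young arrays open, old arrays filled, with a black bar at the old mean and an asterisk at called genes. Old points are clear of young points for Alox12, Ptgs1, Tbxa2r, Tbxas1, P2rx1, Gng11, Trpc6, Lat and Prkcq, and Tubb1 shows young replicate 6 alone at the right.

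The oligonucleotides that gave these values are 60 bases long, and those of Lat, Itga2b and Tubb1 are shown as the probes of a member with closely grouped arrays, of the integrin chain and of the member with the lowest difference. The Itga2b probe covers 209 bases of the genome and so crosses an intron.
Lat probe, chr7:133507719-133507778 in mm9, minus strand: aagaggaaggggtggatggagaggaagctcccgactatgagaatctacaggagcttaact
Itga2b probe, chr11:102319453-102319661 in mm9, minus strand: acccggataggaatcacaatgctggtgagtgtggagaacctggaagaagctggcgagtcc
Tubb1 probe, chr2:174283277-174283336 in mm9, plus strand: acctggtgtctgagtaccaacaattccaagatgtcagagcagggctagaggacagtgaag

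Where a member had several tested probes, the dimmer ones often had smaller differences. The second probe of Ltbp1 differed by -0.19 (SE 0.34) where the brightest differed by 1.04, and the other probes of Prkcq differed by 0.37 (SE 0.32) and -0.10 (SE 0.45) where the brightest differed by 0.98. The second probe of Vwf differed by 0.48 (SE 0.45) and ran from -1.20 to 1.13 over the young arrays alone. Pear1 had a second probe at -0.20 (SE 0.38), Tbxas1 one at 0.28 (SE 0.35) and Gp1bb one at 0.45 (SE 0.31). The Clec1b probes differed by 1.16, 0.61 and 1.33, and in each young replicate 3 was the highest young array. The dimmest Gp1bb probe had signal well above background on 3 old and 0 young arrays. Estimated as for the second Alox12 probe, its old mean was 1.46-fold higher, which is no strict bound either.

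A promoter of 250 bases before to 50 after the RefSeq start was at hand for 35 of the 44 members, and 4 short motifs were counted in it on both strands. The ETS core AGGAAG was present in 20 of the 35 (57.1%), compared with 38.4% of the 27025 genes with a promoter. Among members with complete separation of the ages it was present in 15 of 21 (71.4%), and among the other tested members in 4 of 13 (30.8%). The ETS form CCGGAA was present in 6 of 35 (17.1%, against 16.7% of all genes), the GATA core AGATAA in 5 of 35 (14.3%, against 12.7%) and TGAGTCA in 1 of 35 (2.86%, against 5.95%). AGGAAG lay within the last 16 bases before the start in Gp9, Gp1ba, Pf4 and Pear1 and also in Nbeal2, which differed by 0.09, and Gp5 carried a pair of GATA cores upstream of its ETS core. These are counts of exact letters in a short window, which leave out other forms of the cores, and they are given without a test.

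The lowest and highest values were spread over several arrays. Over the 41 tested members, the lowest of the 8 values was on young replicate 4 in 21 members, on young replicate 5 in 10 and on young replicate 3 in 8. The highest of the 8 values was on old replicate 2 in 14 members, on old replicate 5 in 10, on old replicate 4 in 9 and on young replicate 3 in 5. Young replicate 3 was the highest young array in 19 members, and it alone overlapped the old arrays in Gp6, Clec1b, Ltbp1, Rab27b and Slc35d3. With any 1 array left out, between 37 and 40 members were higher in old mice and the median difference lay between 0.82 and 0.97. On slide 1 alone the median was 0.94 with 37 members higher, and on slide 2 alone 0.82 with 36 members higher. The number of members called dropped to 0 without young replicate 4, 5 or 6 or without old replicate 2, 3 or 5, was 1 without old replicate 4 (Timp3), and was 1 without young replicate 3 (Clec1b).

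Of 55 further platelet genes that are not in the set, 53 were tested, 45 were higher and 8 lower, and their median difference was 0.27. Pdgfb, the gene of a platelet-derived growth factor chain, rose by 1.22 (adjusted p = 0.0232 in limma) and was the only one called. Clu, the gene of clusterin, was higher by 1.66 (adjusted p = 0.0518) and F13a1, the gene of the factor XIII A chain, which monocytes also make, differed by -1.11, from 3.64 to 2.53 (adjusted p = 0.154).

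Of 14 megakaryocyte and erythroid transcription factors, 11 were higher, 7 had every old array above every young array, and none passed the adjusted threshold in limma, where 7 had an unadjusted p under 0.05. Their median difference was 0.43. Gata1 was higher by 0.73 (SE 0.21, adjusted p = 0.355), Gata2 by 0.72 (SE 0.30, adjusted p = 0.704) and Meis1 by 0.65 (SE 0.18, adjusted p = 0.304), all by limma. Fli1, an ETS factor of megakaryocytes, was higher by 0.42 (SE 0.21), Nfe2 by 0.44 (SE 0.17) and Runx1 by 0.11 (SE 0.18).

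Markers of other cell types also differed between the ages. All 9 tested granulocyte and monocyte genes were lower in old CMPs, 4 with every old array below every young array and none called, with a median of -0.57. Mpo differed by -0.59, Elane by -1.02 and Prtn3 by -1.01. The summed level of a list is the log2 of the summed signal of its genes on an array, on the same scale. Each gene with a probe entered at its brightest probe, tested or not. Such a sum follows mainly the brightest probes of a list, so it does not show a shift of the whole list and cannot be set against that of another list. That of the granulocyte and monocyte list ran from 10.02 to 10.44 on the young and from 9.70 to 9.82 on the old arrays, and that of the members from 8.07 to 8.56 and from 9.04 to 9.29. In these bulk samples fewer or more cells of a type and less or more RNA per cell cannot be told apart.

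Of the basophil and mast cell genes, 6 of 8 tested were higher, with a median of 0.53 and a summed level of 3.85 to 4.15 on the young and 4.45 to 5.81 on the old arrays. Fcer1a rose by 2.50 (adjusted p = 0.0293 in limma) and was the only one called, and 4 of the 8 were higher at an unadjusted p under 0.05 in limma. Gzmb differed by 1.03, Cpa3 by 0.86, Ms4a2 by 0.71, Prss34 by 0.34, Mcpt8 by 0.31, Tpsb2 by -0.19 and Cma1 by -1.01. On old replicate 2 Gzmb was at 5.51, against 3.36 to 4.41 on the other old arrays. It was the brightest gene of the list there, so the top of the summed range rests mostly on it. Of the HSC genes, 6 of 9 tested were higher, with a median of 0.27 and a summed level of 2.87 to 3.25 on the young and 3.13 to 3.62 on the old arrays. Hoxb5 rose by 1.85 (adjusted p = 0.00707 in limma), while Mecom and Fhl1 were not tested for lack of signal. Hoxb5 was dim, with means of -4.44 in young and -2.60 in old mice, and was well above background on 3 young and 4 old arrays. Slamf1 differed by 0.64, Hlf by 0.44, Vldlr by 0.40, Ctnnal1 by 0.27 and Ctsf by 0.22. Procr differed by -0.30, Mllt3 by -0.14 and Fgd5 by -0.05.

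The erythroid list had a median of -0.14 with 4 of 11 genes higher and a summed level of 5.45 to 6.47 on the young and 6.07 to 6.62 on the old arrays. Young replicate 3 stood apart in haemoglobin genes. Hba-a1 was at 2.21 on it and at -2.46 to -1.11 on the other young arrays, and Hbb-b1 at 5.49 and at 3.37 to 3.98. Aqp1 was higher by 1.14 and Rhag, well above background on 3 young and 1 old arrays, differed by -2.0. The endothelial list had a median of 0.22 with 5 of 8 higher and a summed level of 5.64 to 6.09 and of 5.60 to 6.15. Tie1 was higher by 1.01, Emcn by 0.96, Robo4 by 0.71, Pecam1 by 0.30 and Plvap by 0.14. Kdr differed by -0.05, Egfl7 by -0.04 and Sox17 by -0.08, and Cdh5 was well above background on 1 old array only. The neutrophil list had a median of -0.17 with 1 of 5 higher, where Mmp8 differed by -1.03 and S100a8 by -0.50. The lymphoid list had a median of -0.22 with 1 of 7 higher, where Cd8a differed by -0.52. No gene of these 4 lists was called in limma, and at an unadjusted p under 0.05 there were 2 erythroid, 3 endothelial and no lymphoid genes higher and 1 neutrophil gene lower. Among the genes of the gate, Kit differed by 0.31 and Cd34 by -0.21, while Ly6a, which encodes Sca-1, differed by -0.73 and Fcgr3 by -0.47. The part of these lists in the shift of the members was not tested.

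**Figure D5:**
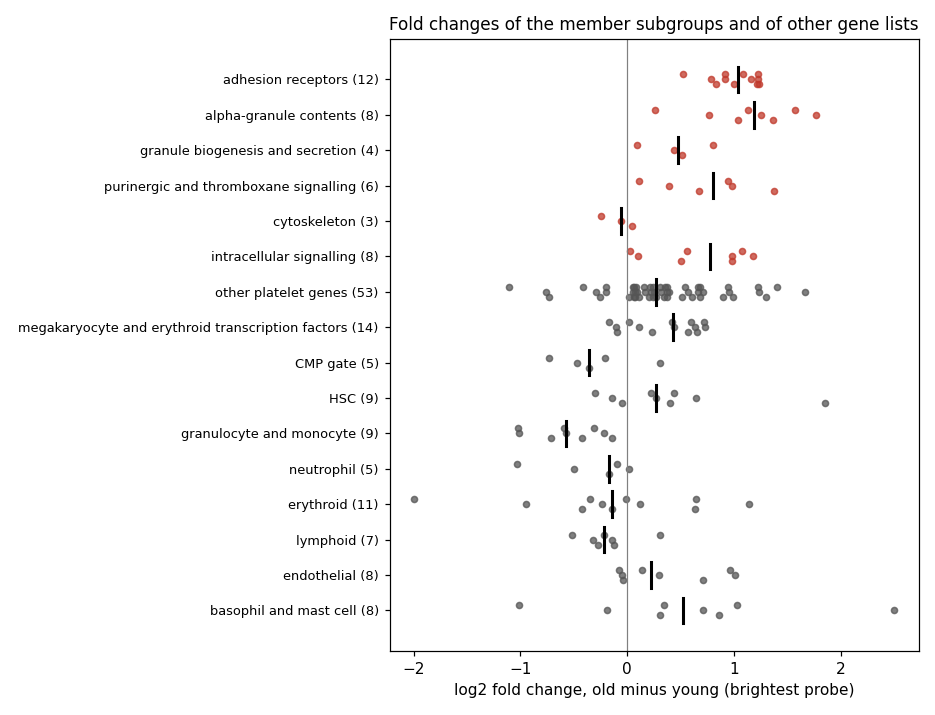
Difference between old and young CMPs (x axis, log2) of each tested gene at its brightest probe, by list, with a black bar at the median, the member subgroups in red, the other lists in grey and the number of genes tested in parentheses. The medians of the adhesion receptors (1.04) and alpha-granule contents (1.19) lie furthest to the right, and that of the granulocyte and monocyte genes (-0.57) furthest to the left.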

How the data were processed

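Common myeloid progenitors (CMPs) of young and old mice were measured on 8 one-colour Agilent arrays, grouped by the sample titles. The authors labelled 100 ng of RNA per sample and deposited, for each array, the intensity of 62976 spots after background correction by Feature Extraction 10.7.3.1 (version per the submitters' processing notes). A deposited table of the whole series holds log2 values that the authors shifted to the 75th percentile and centred per probe, and it served as an alternative. Ages are those of the sample labels, and other descriptions of the study give slightly different ranges. Probe coordinates in the files are those of mm9, promoters those of RefSeq on GRCm38.p6.

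The intensities were put on the log2 scale and shifted so that the 75th percentile of the 59305 non-control spots of each array was 0. Outlier spots by the software's marks were dropped (141 to 230 per array), and spots of a probe were averaged to 55681 probes. The 33479 probes well above background on at least 4 of 8 arrays were fitted with the lmFit and eBayes functions of limma 3.58.1 (R 4.3.3, data.table version 1.17.8), old against young without covariates, with Benjamini-Hochberg adjustment over all of them. The fit was also run on simulated arrays with independent noise and no slide effect. Known changes were added only to probes with a spread under the median, so that run does not measure the accuracy of the calls. A gene, at its brightest probe, was called where it changed at least 1.5-fold with an adjusted p under 0.05. For a fold where 1 age had no signal, each array of that age took the value of its dimmest probe that passed the background mark, or its own value if greater. That value is the lowest level that passed on the array, so the fold is no strict bound. Array number and signal over background limit the precision, and 4 arrays against 4 allow an exact permutation test no two-sided p below 0.0286.

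Values on every array were given for called members, for the 3 with the largest difference in each subgroup and for others as space allowed, members whose probes disagreed and untested members were named, and of other lists the called genes or the 2 with the largest difference. Genes of other lists named beyond this were chosen after their values were seen. A result under this rule is left out here. The members and lists were chosen with earlier results of these data known. Slides were read from the file headers. Replicate numbers shared by the ages (3, 4 and 5) were checked for pairing. Alternatives covered background correction, normalization, filters, choice of probe, variance model, test, slide, replicate block and leaving out each array.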

Additional observations from a re-analysis of the deposited data

Results flagged for a closer look

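Of 94 groups of 4 arrays examined (each member at its brightest probe and each subgroup median, in either age), 6 had 1 array far from the other 3, and chance alone would mark about 1 in 20 groups. Tubb1, the beta tubulin of the marginal band, was at -2.27 on young replicate 6 and between -5.08 and -5.00 on the other young arrays. Cd9 was at 4.77 on old replicate 3 and between 5.17 and 5.25 on the other old arrays. Myl9 was at -5.03 on old replicate 5, with the other old arrays between -3.76 and -3.54. Rasgrp2 was at 4.18 on old replicate 4, with the others between 3.87 and 3.90. The median of the alpha-granule genes, as the difference from each gene's mean over the 8 arrays, was 0.87 on old replicate 2 and 0.38 to 0.46 on the other old arrays. That of granule biogenesis and secretion was 0.51 on old replicate 2 and 0.11 to 0.17 on the others.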

How the results depend on the processing

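The direction of the members' shift held under every alternative run, except for the cytoskeleton genes, whose median ranged from -0.24 to 0.23, and the number of calls did not hold. Members higher in old CMPs numbered 36 of 36 tested with the filter on all 8 arrays, 39 of 39 with the filter on all arrays of an age, 41 of 43 with no filter and 36 to 40 of 41 under the other alternatives, and the median difference of all members lay between 0.78 and 1.03. Members with every old array above every young array numbered 19 to 27 with all arrays and 24 to 29 with 1 array left out. They numbered 31 on slide 1 alone and 33 on slide 2 alone, where 2 arrays against 2 separate more readily. The share of all genes with this pattern was not computed for the alternatives. No subgroup median moved by more than the spread between arrays except 3. That of intracellular signalling was 0.53 with the mean of a gene's tested probes, that of the purinergic and thromboxane genes was 0.67 with no filter, which adds P2ry12, and that of granule biogenesis and secretion was 0.28 on slide 2 alone.

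Members called higher numbered 8 with normexp background correction, 10 with an intensity trend and robust variances, 9 with array weights, 5 with the series table, 5 with the filter on all arrays of an age, 5 with the mean of the tested probes and 27 without adjustment in limma. None was called with no filter, with the slide as a block, with the replicate block or by Welch's t-test with adjustment. The methods name Welch's t-test in their general statistics and no test for the arrays. Without adjustment, 27 had a limma p under 0.05 and a 1.5-fold change. With 1 array left out, 0 to 1 members were called higher. Over all genes, 44 were called higher and 4 lower in the main fit. The counts were 69 and 19 with normexp, 68 and 11 with the intensity trend and 113 and 36 with array weights. They were 20 and 1 with no filter, 29 and 2 with the slide block and 0 and 0 by Welch's t-test with adjustment. Without adjustment limma called 648 and 492. Called higher were 29 with the filter on all 8 arrays and 19 to 33 with 1 array left out. Called lower were 1 with quantile normalization, 2 with the shift to the median, 11 with the filter on all arrays of an age, 12 with the mean of the tested probes and 0 to 3 with 1 array left out.

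The replicate numbers shared by the ages were not treated as pairs. Same-numbered arrays correlated at -0.0928, -0.141 and 0.148 for numbers 3, 4 and 5 in their deviations from the age means. Only for number 5 was the same-numbered old array the best match. Replicates 4 and 5 of the ages also shared a slide, so these values cannot settle whether the numbers pair the arrays. With the replicate block 10 genes were called higher, 0 lower and 0 members.

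The sign of 8 members depended on the alternative. Myl9 was at 0.11 with normexp, 0.06 with quantile normalization, 0.06 with the shift to the median and 0.10 with array weights. Nbeal2 was at -0.05 with normexp, Plek at -0.03 with quantile normalization, and Mylk at -0.01 and Tubb1 at 0.37 with the replicate block. With 1 array left out, Myl9 ranged from -0.24 to 0.29, Nbeal2 from -0.01 to 0.22, Mylk from -0.16 to 0.18, P2ry1 from -0.04 to 0.28, Plek from -0.16 to 0.23 and Tubb1 from -0.50 to 0.44. On 1 slide alone the sign was opposite for Angpt1 (-0.23), P2ry1 (-0.21), Plek (-0.51) and Tubb1 (0.54) on slide 1 and for Nbeal2 (-0.06), Mylk (-0.14) and Rasgrp2 (-0.05) on slide 2. The shift to the median moved the median of all genes from -0.01 to 0.10. The cause of the changes was not tested.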
